A study of Homo sapiens with 12 samples.

Results

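Cufflinks assembles transcripts from aligned reads, and each is then given a code for how it matches the reference annotation. The transcripts described here were chosen by 3 criteria in the deposited tables: a class code of "-" (no reference transcript), a length of at least 300 bases, and an FPKM (the fragments assigned to a transcript, scaled to its length in kilobases and to 1000000 mapped fragments) over 0.5 in at least 3 of the 12 libraries. Of 293768 transcripts in the table, 4298 had no reference transcript and 3778 of those reached 300 bases. 776 passed the FPKM criterion as well and are the members, and the other 3002 did not. The FPKM values thus chose the members, and a member low at every time point but 24 h entered through its 24 h libraries. FPKM is a share of each library's fragments, so less RNA per cell and fewer cells that make an RNA cannot be told apart.

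The RNA came from HCT116, an established human colorectal cancer cell line. The 4 groups, with 3 biological replicates each, were cells at 21% oxygen (0 h) and cells held at 1% oxygen for 1, 2 or 24 h, with the time course begun 24 h after plating. All of them were unmodified cells of a single line in the same medium. Polyadenylated RNA was sequenced strand-specifically as pairs of 100-base reads. The sources used here do not say whether the 0 h cells were collected together with the 24 h cells, so oxygen and time since plating cannot be told apart at 24 h.

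EPCAM, CDH1, KRT8, KRT18, KRT19 and CDX2, which is 6 of 8 epithelial markers, had a transcript past the FPKM criterion, whereas VIL1 and LGR5 did not. Among 10 markers of blood, vessel, stromal, liver and red cells only COL1A1 did, at 0.916 to 7.09 FPKM. Of 50 genes known to be induced by low oxygen, 46 had a value at 24 h, 41 of these were called higher and 0 lower, and their median log2 fold change was 2.16. A call means an absolute log2 fold change over 1 on log2(FPKM + 0.5) and an adjusted p under 0.01 (limma with Benjamini-Hochberg adjustment over 64395 transcripts). For these genes and for neighbouring loci, the same fit was made on FPKM summed over each of 16131 loci.

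Transcripts outside annotation have several known sources. They can be long noncoding RNAs missing from a catalogue, extensions of known genes, processed copies of messenger RNAs, or RNA from repeated elements. Endogenous retroviruses are one such repeat class: their long terminal repeats can start transcription, and elements of one family lie in near-identical copies on many chromosomes. In such copies a read can fit several places, and how an assembler divides it bears on each copy's level.

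The members were short and low. Their median length was 622.5 bases (range 300 to 14613), against 1701 bases for annotated transcripts past the same criterion. Their median FPKM over the 12 libraries was 0.675, against 1.23 for annotated ones. 519 members had a mean over 0.5 FPKM and 36 a mean over 10 FPKM. 190 were over 0.5 FPKM in every library, and 159 in exactly 3. Of the 49 members that were over 0.5 FPKM at no more than 1 time point, 44 were so in the 24 h libraries, 4 in the 0 h, 1 in the 1 h and 0 in the 2 h libraries. Just inside the criteria lay 5 members of exactly 300 bases and TCONS_00002011, whose third-highest FPKM was 0.5007. Just outside lay 2 unannotated transcripts of 299 bases and TCONS_00244946, whose third-highest FPKM was 0.4995.

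The 776 members fell in 718 loci and 681 bundles, a bundle being the stretch of genome that the assembler treated together. The table gives the bundle's coordinates and not a transcript's own. For 466 members the bundle was exactly as long as the transcript, so they were unspliced single blocks of known position on GRCh37 (hg19). The extent of the other 310 is not known from the table. 178 members shared a bundle with a named gene, and 117 lay within 1000 bases of one, 144 between 1000 and 5000 bases, 258 between 5000 and 50000 bases and 79 farther. The largest gap was 339844 bases. Among the 466 of known position, 354 lay between the genes of GENCODE release 44, 64 within introns and 48 on an exon. Chromosome 9 held 8.76% of the members but 3.58% of the annotated transcripts, and chromosome 17 held 3.61% against 7.20%.

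At 1 h and at 2 h no member was called, and 0.0% of all transcripts tested were called at either time (limma). At an unadjusted p under 0.05, 36 of the 776 members passed at 1 h and 57 at 2 h, against 3284 and 5940 of all 64395 transcripts tested. At 24 h 137 members rose and 29 fell; the 29 became 10, 13 and 14 without 0 h replicate 1, 2 and 3, and 13 without 24 h replicate 1 or 2. The background was 5.37% of all transcripts tested called higher and 6.43% called lower. Members stood at 17.7% higher and 3.74% lower. The 479 unannotated transcripts under 300 bases that passed the same FPKM criterion stood at 23.8% higher and 2.92% lower, with a median log2 fold change of 1.28, so a larger share of calls higher than lower was not particular to the members. The median log2 fold change was 0.24 in the members and -0.08 in all transcripts tested. Part of the excess on the higher side is fixed by the choice of members: of the 44 that were over 0.5 FPKM at 24 h alone and the 5 others limited to 1 time point, 27 were called higher. Among the 519 members with a mean over 0.5 FPKM, 113 were higher and 25 lower. All 24 h libraries lay above all 0 h libraries in 253 of the 776 members and below them in 146. Over all transcripts tested the shares were 18.1% and 22.5%.

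Sequence set a large group of the rising members apart. The 466 members of known position were compared with each other and joined where they were at least 80% identical over at least 50% of the shorter sequence. Of the joined groups, one of 117 members held 78 of the 137 members that rose. Every member of it matched the same stretch of a transcript of LRRK1 (leucine-rich repeat kinase 1), namely the last 5768 bases of ENST00000526457, at 80.4% to 96.6% identity. It is called the LRRK1-matching family here. Its members matched transcripts of 140 genes in all, among the most frequent the noncoding RNA genes TSIX with 87 members, ENSG00000283633 with 56, ENSG00000286288 with 50 and LINC03061 with 49. Less frequent matches, picked here because their names or sequence are known for a repeat, were HHLA1 with 27 members, HHLA3 with 12, ESRG with 10, LINC-ROR with 7 and HHLA2 with 4. The mixed group described later also held 20 members that matched LRRK1. As background, the HHLA symbols stand for genes associated with long terminal repeats of the endogenous retrovirus HERV-H, and ESRG and LINC-ROR are noncoding RNAs of pluripotent cells that contain HERV-H sequence. No library of repeats was used here, so the family is given no repeat name. It was noticed after the rising members had been seen, so its values are a description and carry no test.

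The 117 members form 6786 pairs, of which 1341 matched each other by that rule, at a median identity of 96.7% over the matched part. The others are joined through further members.

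The family's level stayed within a narrow range to 2 h and was higher in each 24 h library. Its summed FPKM was 363, 342 and 349 in the 0 h libraries, 408, 388 and 362 at 1 h, and 411, 385 and 353 at 2 h. At 24 h the sums were 1598, 1330 and 2007. The 24 h sums therefore did not overlap those of any earlier library. The median member had a mean of 1.08 FPKM before hypoxia, 1.21 and 1.13 FPKM after 1 and 2 h, and 4.96 FPKM after 24 h. All 117 log2 fold changes at 24 h were above 0, from 0.31 to 3.01 with a median of 1.74, 78 members were called higher and 0 lower, and in 110 the 24 h libraries lay above all 0 h libraries. 5 of the 117 were over 0.5 FPKM at 24 h alone.

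**Figure D1:**
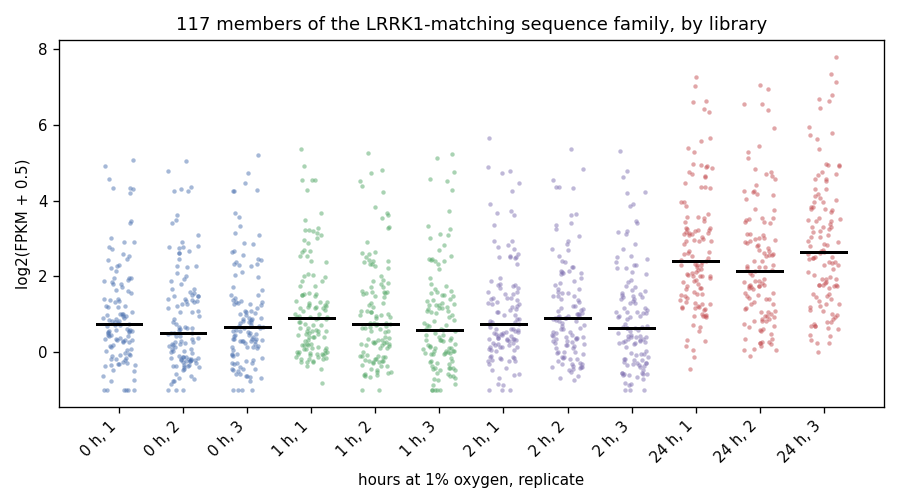
Levels of the 117 members of the LRRK1-matching family in each library, as log2(FPKM + 0.5), by hours at 1% oxygen and replicate. Each point is a member and each bar the median; the medians of the 3 libraries at 24 h (3.93 to 5.71 FPKM) lie above those of the 9 earlier libraries (0.929 to 1.37 FPKM).

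Among themselves the members of the family differed more in level than in direction. TCONS_00017731 (XLOC_003662, chr1:66110282-66111121, 3039 bases from the bundle of the leptin receptor gene LEPR and LEPROT) was the most abundant. Its FPKM was 33.0, 32.3 and 36.2 at 0 h, 40.8, 37.6 and 36.9 at 1 h, 49.8, 40.3 and 38.9 at 2 h, and 153, 131 and 221 at 24 h. The 24 h libraries stood apart from the 9 others, and the log2 fold change was 2.26 ± 0.17 (SE; limma adjusted p = 1.54e-05). TCONS_00289058 (chrX:3477878-3478202) rose from 29.8, 27 and 25.9 to 129, 122 and 163 FPKM (2.29 ± 0.14, limma adjusted p = 3.99e-06). TCONS_00017701 (chr1:64816146-64816477) and TCONS_00024671 (chr1:233819336-233819758) were at 18.5 to 23.1 FPKM at 0 h and 92.7 to 140 FPKM at 24 h. The last 3 were named after their values were seen.

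The largest log2 fold change of the family was that of TCONS_00152033 (XLOC_029913, chr2:200046482-200046805, between genes). Its FPKM was 0.704, 0.856 and 1.23 at 0 h, 0.979, 3.25 and 2.34 at 1 h, 2.92, 1.46 and 2.79 at 2 h, and 11.3, 7.57 and 15.2 at 24 h. The change at 24 h was 3.01 ± 0.37 (SE; limma adjusted p = 0.000213). TCONS_00229378 (chr6:91380409-91380778, 83463 bases from the kinase gene MAP3K7) rose from 4.18, 3.15 and 4.95 to 24.4, 18.4 and 29.8 FPKM (2.42 ± 0.21, limma adjusted p = 3.06e-05), and 100% of its 100-base windows occur elsewhere in the genome. TCONS_00088305 (chr15:53720555-53720883, in an intron of ENSG00000287596) went from 1.59, 1.19 and 3.85 to 10.5, 10.4 and 17.4 FPKM (2.38 ± 0.33, limma adjusted p = 0.000426). TCONS_00249173 on chromosome 8 went from 5.51, 10.1 and 12.2 to 47.2, 34.5 and 86.1 FPKM (2.49 ± 0.33, limma adjusted p = 0.000351). At the other end, TCONS_00216240 (chr5:100321868-100322184) was at 0.981, 0.894 and 0.862 FPKM at 0 h and 1.14, 0.773 and 2.07 at 24 h, where the groups overlapped and no call was made. It too was named after its values were seen.

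Along the matched stretch the members were unevenly placed. 2 had the centre of their match in the first 2000 bases, 46 in bases 2001 to 4000, and 69 in bases 4001 to 5768. The median log2 fold change was 1.69, 1.74 and 1.74 in these parts. Members matched the LRRK1 transcript on its own strand in 54 cases and on the other genomic strand in 63, and the table does not give a transcript's strand.

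**Figure D2:**
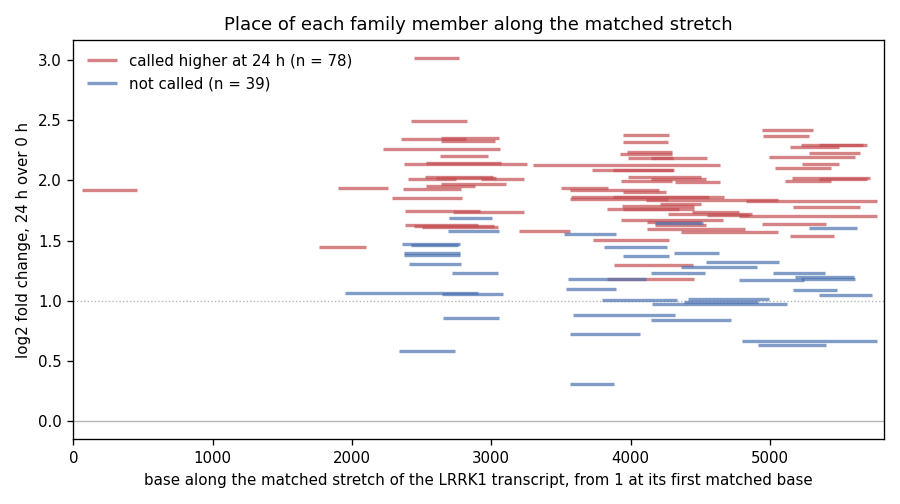
Place of each of the 117 family members along the matched stretch of the LRRK1 transcript (horizontal axis, bases from 1 at the first matched base) against its log2 fold change at 24 h over 0 h (vertical axis). Each line spans a member's match; the 78 called members are red and the 39 others blue, both kinds lie along the stretch from base 1950 on, and 3 called members start before it.

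The family was spread over 18 chromosomes, 98 members between genes, 18 in introns and 1 on an exon. The genes nearest to it gave other values. The median log2 fold change of the nearest named locus with a transcript past the criterion was -0.13, with 8 such loci called higher and 11 lower. The ratio of a member to that locus was called higher for 77 of the 117 and lower for 0. How reads were shared out between copies was not tested. Of the 117 members, 0 had only windows of 100 bases, the read length, that occur once in the genome, 4 had none, and the median share of windows found elsewhere was 46.7%. The level of a single copy is therefore less certain than that of the family.

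Sequences of the same kind outside the 117 were looked up next. Of 1626 single-block unannotated transcripts of at least 300 bases that did not pass the FPKM criterion, 17 resembled the family, and the 24 h mean was above the 0 h mean in 17 of 17 (median 0.0851 FPKM at 0 h and 0.369 at 24 h), against 1029 of 1626 in all. Of 132 members without a known extent and without a named gene in the bundle, 11 lay in 7 bundles that hold a stretch of at least 200 bases like the family. 7 of these 11 were called higher, 0 lower, and their median log2 fold change was 1.67. In the other 121 members, 11 were called higher and 2 lower, with a median of 0.18. A like stretch in a bundle does not show that the transcript contains it.

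Those 11 included the most abundant member, TCONS_00224815. XLOC_045981 (bundle chr6:145243095-145249988, 68921 bases from UTRN, the gene of utrophin) had 3 isoforms. TCONS_00224815 (895 bases) was at 189, 168 and 180 FPKM at 0 h, 183, 177 and 160 at 1 h, 226, 189 and 169 at 2 h, and 776, 514 and 469 at 24 h. Its log2 fold change was 1.67 ± 0.17 (SE; limma adjusted p = 7.8e-05). The other two were not called: TCONS_00224814 went from 103, 87.9 and 77.2 to 276, 144 and 95.8 FPKM, where the groups overlapped, and TCONS_00224816 from 79.8, 69.8 and 58.5 to 169, 123 and 102 FPKM (limma adjusted p = 0.0209).

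Annotated transcripts whose current models match the family had values in both directions. 12 transcripts past the criterion, of 7 genes, had a current GENCODE model that matches the family, and 2 of them were called higher and 0 lower. 1 of the 2, that of GSDMB, passed the FPKM criterion through its 24 h libraries alone. ENST00000555835 of RNASE4 (a ribonuclease gene) rose from 1.01, 1.02 and 0.995 to 9.62, 12.5 and 9.10 FPKM (2.84 ± 0.28, limma adjusted p = 5.29e-05). ENST00000477054 of GSDMB (gasdermin B), matched by 1 family member, went from 0.314, 0.197 and 0.363 to 0.927, 1.41 and 2.28 FPKM (log2 fold change 1.32). Its 24 h values chose it, so no test is given. The table's LRRK1 transcript has 7671 bases against 15674 in the current model and may lack the stretch. It was between 1.99 and 2.25 FPKM at 0 h and at 1.32, 1.63 and 2.19 FPKM at 24 h. ENST00000607714 of TIMM50, a subunit of the mitochondrial import machinery, is 1338 bases long in the table and 5037 bases in the current model, so it too may lack the stretch. It was at 56.0, 51.5 and 47.7 FPKM at 0 h and 32.6, 23.8 and 22.8 at 24 h, a log2 fold change of -0.97 that did not reach the fold a call requires (limma adjusted p = 0.000588). Transcripts whose table model is nearly as long as the current one went both ways. ENST00000553645 of the dynein light chain gene DNAL1 was at -0.56 and ENST00000595527 of TIMM50 at -0.83. ENST00000463058 of HHLA3 was at -0.66 and was listed at 0 in each 24 h library. ENST00000359875 and ENST00000370940 of HHLA3 were at 1.16 and 1.12. Its ENST00000361764 and ENST00000486110, with clearly shorter table models, were at 1.14 and 0.92. None of these was called. Of the 12 transcripts, 6 were above 0.

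Outside the family, 659 members held 59 of those that rose and all 29 that fell, and their median log2 fold change was 0.07. The 59 and the 29 are 8.95% and 4.40% of the 659. Of the 349 with a known position, 21 were called higher and 21 lower, 6.02% in each direction and near the 5.37% and 6.43% of all transcripts tested. Of the 310 of unknown extent, 38 were called higher and 8 lower, which is 12.3% and 2.58%. In 26 of the 310, FPKM was over 0.5 at 24 h alone. The largest of the other joined groups, of 127 members, matched transcripts of 6676 genes and is called the mixed group here. 7 of its members were called higher and 19 lower, which is 5.51% and 15.0% against those same 5.37% and 6.43%. 11 of the 19 lay in a single run on chromosome 19. The 19 became 5, 6 and 6 without 0 h replicate 1, 2 and 3, 6 without 24 h replicate 1 or 2, and 10 without 24 h replicate 3.

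**Figure D3:**
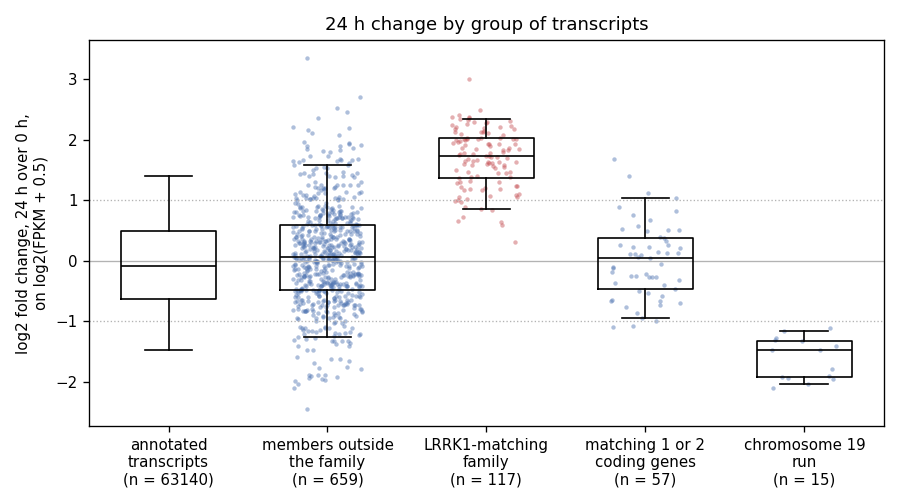
log2 fold change at 24 h over 0 h by group of transcripts. Boxes span the quartiles with the median, whiskers the 5th to 95th percentile, points are members, and dotted lines mark the fold change a call requires; the LRRK1-matching family lies above 0 throughout and the chromosome 19 run lies below -1 throughout.

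TCONS_00004887 had the largest log2 fold change at a pseudocount of 0.5, a rank that it did not keep at a pseudocount of 0.1, without 24 h replicate 2 or without 0 h replicate 2. It is a transcript of XLOC_000993 (4323 bases, in a bundle at chr1:68851162-69004310 that also holds RPE65, the retinoid isomerase gene, and DEPDC1). Its FPKM was 3.07, 0.864 and 1.44 at 0 h, 0.720, 1.39 and 1.53 at 1 h, 1.83, 2.24 and 1.49 at 2 h, and 16.6, 56.2 and 10.0 at 24 h. The second 24 h library stood well above the other two. The log2 fold change was 3.36 ± 0.54 (SE; limma adjusted p = 0.00104), and 2.67 without that library. With the 6 libraries of the contrast alone it was not called. The locus of DEPDC1 had a log2 fold change of -0.25. TCONS_00289033 (bundle chrX:2484076-2527221, 76 bases from the bundle of the pseudogene CD99P1) was at or near 0 in the 0 h libraries and at 2.69, 2.77 and 1.77 FPKM at 24 h. It was over 0.5 FPKM in the 24 h libraries alone, so these values chose it and no test is given. The locus of CD99P1 itself had a log2 fold change of 1.13. TCONS_00077202 (chr14:24367108-24367452, one of the mixed group) was at 0, 0.868 and 0 FPKM at 0 h and 2.11, 6.84 and 4.51 at 24 h (2.71 ± 0.46, limma adjusted p = 0.00143, not called with the 6 libraries alone). TCONS_00136354 lay in the bundle of AC005256.1 on chromosome 19 and went from 0.305, 0 and 0.427 to 3.30, 4.67 and 2.72 FPKM (2.47 ± 0.40, limma adjusted p = 0.00106). The locus of AC005256.1 had a log2 fold change of 2.18, and the member's ratio to it was not called.

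Among the members that fell, TCONS_00249683 (408 bases, in the bundle of PVT1, a long noncoding RNA gene next to MYC) had the largest change at a pseudocount of 0.5, but not at 0.1. Its FPKM was 24.8, 23.1 and 14.8 at 0 h, 17.4, 19.8 and 13.9 at 1 h, 16.2, 26.1 and 9.89 at 2 h, and 4.81, 3.12 and 2.44 at 24 h. The 24 h libraries lay below all others, with a log2 fold change of -2.44 ± 0.34 (SE; limma adjusted p = 0.000417). The PVT1 locus as a whole had a log2 fold change of 0.37. TCONS_00173937 (chr22:22929660-22930132, 493 bases from the immunoglobulin segment IGLV2-33) went from 3.12, 1.34 and 1.37 to 0, 0.0941 and 0.170 FPKM (-1.99 ± 0.39, limma adjusted p = 0.00323), and 0% of its windows occur elsewhere. The call was lost without 0 h replicate 1 or 24 h replicate 1 or 2, with the 6 libraries alone and without the FPKM filter.

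The remaining named falls came from a single run of members. Between chr19:50596246 and chr19:50651450, 15 members lay in 14 bundles, and 11 of the 29 members that fell were there. Each of the 6 named here lost its call when any 1 of the 0 h or 24 h libraries was left out. 13 were single blocks, between 68.1% and 100% of whose windows occur elsewhere in the genome, some of them at up to 20 places. Several of them had the same values in a library. TCONS_00134214 was at 3.03, 2.31 and 2.86 FPKM at 0 h, 0.556, 1.43 and 0 at 1 h, 0.921, 0.921 and 0.292 at 2 h, and 0.216, 0.367 and 0.177 at 24 h. TCONS_00134209 was at 3.01, 2.18 and 2.57 FPKM at 0 h and 0.214, 0.365 and 0.176 at 24 h. TCONS_00134216, TCONS_00134218 and TCONS_00134222 each stood at 0.180, 0.305 and 0.144 FPKM at 24 h, the same values in all 3 members, while their 0 h values differed in part. TCONS_00134220 had a log2 fold change of -1.90 ± 0.42 (SE; limma adjusted p = 0.00671). The log2 fold changes at 24 h of the 15 ran from -2.10 to -1.10.

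At the early times all 15 had a log2 fold change below 0 at 1 h and at 2 h, and 13 had an unadjusted p under 0.05 at each time, while 0 were called at either. The median of the means was 1.32 FPKM before hypoxia, 0.548 and 0.343 FPKM after 1 and 2 h, and 0.135 FPKM after 24 h. Since the members share sequence, these are not 15 separate measurements. The nearest named loci past the criterion, the kinase gene VRK3 or the myosin gene MYH14, had log2 fold changes of 0.01 and 0.80 at 24 h, and the ratio to the nearest locus was called lower in 14 of the 15.

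A second run lay on the same chromosome at chr19:48412892-48450428. Its 5 members, 99.0% identical at the median, had log2 fold changes of -1.97 to -1.62 and 0 were called. TCONS_00133594 was at 4.41, 1.02 and 1.72 FPKM at 0 h and 0.454, 0 and 0.376 at 24 h, and 3 of the 5 were listed at 0 in each 24 h library. In each of the 5 all 24 h libraries lay below all 0 h libraries.

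**Figure D4:**
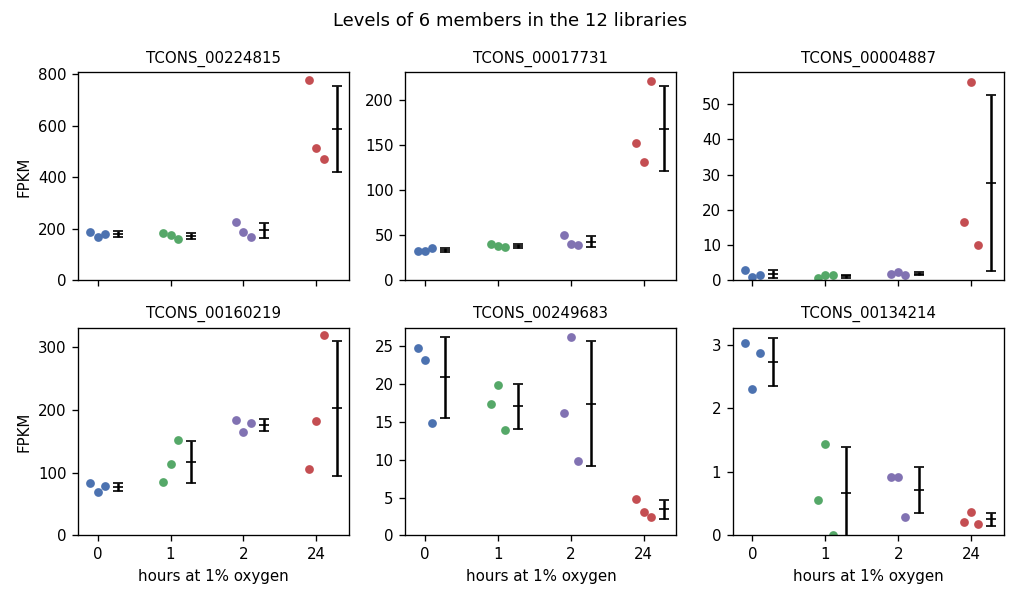
FPKM of 6 members in the 12 libraries by hours at 1% oxygen, with points for replicates and bars for the mean ± SD of 3. TCONS_00224815, TCONS_00017731 and TCONS_00004887 are higher at 24 h, TCONS_00249683 is lower at 24 h, TCONS_00160219 is spread from 107 to 319 FPKM at 24 h, and TCONS_00134214 is below its 0 h values from 1 h on.

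Of the 6 most abundant members, TCONS_00224815 and TCONS_00017731 were called, and the other isoforms of XLOC_045981 and these were not. TCONS_00160219 (chr2:133036496-133036798, between genes, 0% of windows found elsewhere) was at 83.3, 69.8 and 79.0 FPKM at 0 h, 85.6, 114 and 152 at 1 h, 184, 165 and 179 at 2 h, and 107, 183 and 319 at 24 h. All later libraries lay above the 0 h ones, and the 24 h change of 1.25 ± 0.32 (SE) had a limma adjusted p of 0.0141. It was called with median-of-ratios scaling (1.35, adjusted p = 0.00934, limma) and without 24 h replicate 1 (1.64, adjusted p = 0.00149, limma), and the value was 0.85 without 24 h replicate 3. TCONS_00254424 on chromosome 8 matched HNRNPA1, the gene of a nuclear RNA-binding protein, at 97.8% identity and was at 88.3 ± 2.2 FPKM (SD, n = 3) at 0 h and 74.9 ± 10.4 at 24 h.

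That last member belongs to a group of 57 that matched transcripts of 1 or 2 protein-coding genes at 90% identity or more over at least 80% of their length. 5 of the 57 lay on an exon of an annotated pseudogene. 3 were called higher at 24 h and 1 lower, which is 5.26% and 1.75% of the 57 and no larger than the 5.37% and 6.43% of all transcripts tested. 51 had a matched gene with a transcript past the criterion, and in 48 of these the gene's summed FPKM was above the member's, the median member standing at 11% of it. A matched gene's log2 fold change is the difference of means of its FPKM summed over transcripts of that name, with no test. Across the 51 pairs the 24 h log2 fold changes of member and gene had a Pearson correlation of 0.75 and a Spearman correlation of 0.81. The pairs share libraries and, in part, reads, since 22 of the 57 had over 50% of their windows elsewhere in the genome and 12 had none, so the correlation is a description. Some genes, AP1S2 and USP18 among them, were matched by several members, so the 51 pairs do not stand for 51 different genes.

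Particular pairs show the range. TCONS_00046238 (chr11:56853967-56854968), which matched TDG (thymine DNA glycosylase, a base excision repair enzyme) at 99.6% identity, was the 1 called lower: its mean was 7.17 FPKM at 0 h and 3.12 at 24 h, a log2 fold change of -1.09, against -0.87 for TDG itself at 17.0 and 9.07 FPKM. TCONS_00073098 (chr14:55695907-55696655) matched UBE2L3, a ubiquitin-conjugating enzyme, and had a log2 fold change of -0.69 against -0.71 for UBE2L3. TCONS_00151981 (chr2:197687172-197687480) matched the small modifier SUMO2, had 0% of its windows elsewhere, and stood at 39.2 and 32.7 FPKM at 0 and 24 h, against 316 and 295 for SUMO2. TCONS_00070585 and TCONS_00068264, adjacent on chromosome 13, matched the zinc finger gene ZBTB44. They rose by 1.04 and 1.12 on the log2 scale, and the value for ZBTB44 was 0.97. The share of windows found elsewhere was 63.2% in TCONS_00070585 and 61.6% in TCONS_00068264. It was 62.9% in TCONS_00046238 and 46.2% in TCONS_00073098. TCONS_00063640 went the other way from its match: it rose by 1.69 while ISY1-RAB43 was at -0.19, and 100% of its windows occur elsewhere. These pairs were named after their values were seen.

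**Figure D5:**
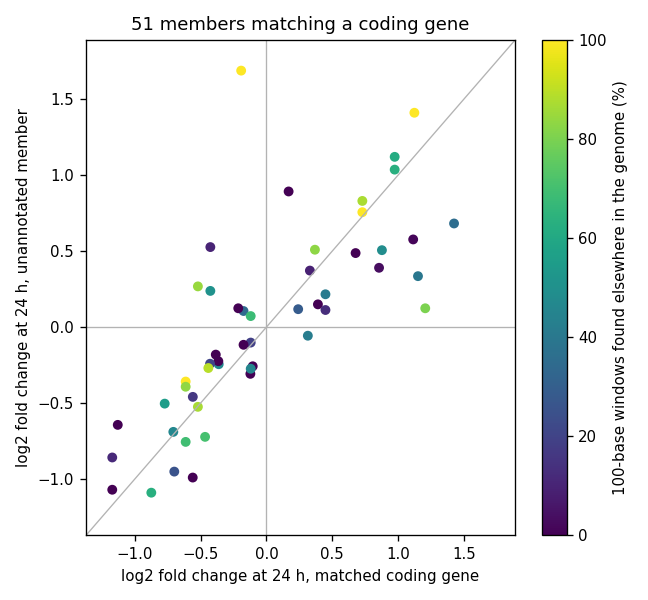
log2 fold change at 24 h of 51 members (vertical axis) against that of the coding gene each matched (horizontal axis), with the line of equal change. Colour gives the percentage of a member's 100-base windows found elsewhere in the genome; most points lie near the line, and the member at 1.69 with a matched gene at -0.19 lies farthest from it.

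Against the nearest named locus with a transcript past the criterion, 137 members had a ratio called higher at 24 h (background 9.54% of all transcripts tested) and 45 a ratio called lower (background 7.87%). Beside the 137 members that rose, 22 neighbours were called higher, 10 lower and 105 neither. Beside the 610 members that were not called, 54 neighbours were called higher, 48 lower and 508 neither. Beside the 29 that fell, 0 neighbours were called higher and 7 lower. Over all 776 members, 76 neighbours were called higher and 65 lower. A locus is counted once for each member beside it, and the members of the chromosome 19 run share VRK3 or MYH14. The share of all loci called is not set beside these counts, so they are a description. The widest ratio changes were those of TCONS_00067497 (family member, chr13:35375357-35375779), at 4.11 ± 0.26 (SE; limma adjusted p = 1.23e-05) against RFC3, a replication factor gene 770015 bases away with a log2 fold change of -1.76, and of TCONS_00071381 (chr14:21118638-21119050), at -4.11 ± 0.48 against the locus of RNASE4 and ANG, 33208 bases away with a log2 fold change of 3.19. TCONS_00023891, a family member, and TCONS_00023893 lie on chromosome 1 at 249567 and 252976 bases from RRP15, a ribosomal RNA processing gene with a log2 fold change of -2.26. They went from 0.539, 1.32 and 1.11 to 4.10, 4.23 and 5.01 FPKM and from 0, 0.355 and 0.0541 to 1.15, 0.895 and 1.39 FPKM, the latter through its 24 h libraries alone past the FPKM criterion. TCONS_00085461, another family member, rose from 2.13, 2.47 and 2.17 to 9.24, 11.2 and 13.7 FPKM (2.09 ± 0.18) while the locus of DET1 and MRPL46, 623934 bases away, had a log2 fold change of -1.54. TCONS_00004887 also had one of the 6 largest, at 3.61 ± 0.55 against DEPDC1.

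Few members lay near the 50 genes known to be induced by low oxygen. 3 genes had a member within 50000 bases, and none of the 3 members was called. TCONS_00212756, 100 bases from the bundle of STC2 (stanniocalcin 2, a secreted glycoprotein), was at 1.42, 0.762 and 1.08 FPKM at 0 h and 1.76, 1.86 and 1.92 at 24 h, while the log2 fold change of STC2 was 2.24. TCONS_00059875, 26926 bases from the glucose transporter gene SLC2A3, went from 0.291, 0.406 and 0.112 to 0.899, 0.921 and 0.946 FPKM. It passed the FPKM criterion through its 24 h libraries alone. The log2 fold change of SLC2A3 was 3.87. TCONS_00025570 lies on a PFKFB3 exon of the current annotation, 18645 bases from the locus the table names for this glycolysis regulator, and stood at 0.737, 0.261 and 0.352 FPKM at 0 h and 0.341, 1.16 and 0.349 at 24 h, where the groups overlapped. The log2 fold change of PFKFB3 was 1.10.

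None of the 3 longest members was called. TCONS_00037943 (14613 bases, in the bundle of CTNND1, the gene of catenin delta) was at 0.244 ± 0.039 FPKM (SD, n = 3) at 0 h and 0.667 ± 0.14 at 24 h, and it passed the FPKM criterion through its 24 h libraries alone. TCONS_00187849 (11878 bases, bundle chr3:5729200-5741183, 263228 bases from the nearest named gene) was at 0.530, 0.505 and 0.256 FPKM at 0 h and 0.926, 1.75 and 2.49 at 24 h (limma adjusted p = 0.0192), and it was called without 24 h replicate 1. TCONS_00203948 (9750 bases, chr4:77861023-77870772) was at 0.446 ± 0.098 and 0.381 ± 0.16 FPKM.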

How the data were processed

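Per the study's methods, the authors used MapSplice for alignment to hg19, Cufflinks for assembly per sample and for FPKM, and Cuffmerge to join the assemblies with Ensembl models; the submitters' processing notes also name CASAVA 1.8.2. The deposited values are FPKM per transcript and library and were used without rescaling. FPKM keeps no read counts, so depth per transcript is unknown and no counting interval was given; an exact 0 can be a failed estimate. The values of 2 near-identical copies depend on how the assembler divided their reads.

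Transcripts of class code =, j, o, x or - with FPKM over 0.5 in at least 3 libraries (64395) were fitted in limma 3.58.1 (R 4.3.3, data.table version 1.17.8; lmFit, eBayes with trend) on log2(FPKM + 0.5), with time point as the factor and all 12 libraries. Ratios subtracted the log2 summed FPKM of the nearest locus that has a gene name and a transcript past the filter. Fold changes on this scale understate the change of low transcripts. The script was tested on simulated data; it recovered a minority of the changes at the size first set, and the size was then raised, so the absence of a call says little about low transcripts. SE is the moderated error of a log2 difference; SD is over 3 replicates.

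Sequences of the 466 single-block members were read from GRCh37 and compared with GENCODE release 44 transcripts and each other with blastn 2.17.0 (E-value at most 1e-20). The sequences themselves are not reported here. Windows of 100 bases were looked up exactly in the genome, both strands. Tables and figures used Python 3.11.15, numpy 2.4.6, pandas 2.3.3, networkx 3.6.1 and matplotlib 3.10.9.

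The members and gene lists were chosen with earlier results of these data known. Transcripts were named by a rule: up to 8 rises and 8 falls called with groups that do not overlap, the 6 most abundant, those within 50000 bases of a gene induced by low oxygen, those next to the thresholds, the 3 longest and the 6 largest called changes of ratio. Others are marked as named after their values were seen. The families, the matches to coding genes, the runs and the like stretches were defined after values had been seen. Left out of the matches to coding genes were members whose best match was a gene matched by 5 or more members. Such a gene was taken to hold a repeated sequence. Members of a joined group of 5 or more, and members lying in the gene they matched best, were left out too. Alternatives were another pseudocount, filter, scaling, unit, threshold or set of libraries, and the replicate number as a block. The replicate numbers do not pair the libraries: correlations of deviations between libraries of the same number ran from -0.14 to 0.17.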

Additional observations from a re-analysis of the deposited data

How the results depend on the processing

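No member was called at 1 h or 2 h under any alternative run. The 137 members higher at 24 h became 79 with the 6 libraries of the contrast alone and 212 at an adjusted p under 0.05 without a minimum fold; leaving out 1 library gave 106 to 136. The 29 members lower became 17 with a pseudocount of 1, 15 with the 6 libraries and 84 at the looser threshold. Other sets of features gave 16 lower among the 3773 unannotated transcripts without the FPKM filter and 46 among the 718 loci with FPKM summed over each. Leaving out 1 library gave 10 to 31: 10, 13 and 14 without 0 h replicate 1, 2 and 3, and 13 without 24 h replicate 1 or 2. The 182 changed ratios became 114 among the 388 members left by a filter of FPKM over 1. Among all 776 members they became 87 with the 6 libraries, 282 at the looser threshold and 108 to 168 without 1 library, the lowest without the second 0 h library. With a replicate block the counts were 140 higher, 29 lower and 179 ratios, and TCONS_00160219 was called (adjusted p = 0.00948, limma); the numbers do not pair the libraries, so this fit is given for completeness. Median-of-ratios scaling gave 147 higher and 28 lower, and rescaling to equal sums 129 and 30. The cause of these shifts was not tested. In the LRRK1-matching family 53 members were called higher with the 6 libraries, 66 to 80 without 1 library, and 0 lower in each of these fits. The family kept 117 members at 75% or 85% identity over 50% of the shorter sequence and held 62 at 80% or 90% identity over 80%, 41 of them called higher (settings chosen after seeing the data). The named falls of the chromosome 19 run lost their call in 8 to 11 alternatives each. Among the 33 members named by the rule, the ones recomputed under each alternative, 1 direction turned: TCONS_00025570, never called, was at -0.14 without 24 h replicate 2 and at up to 0.39 without another library. For 400 of the 776 members the nearest named locus was the same when loci without a transcript past the filter were left out.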
